A study of Mus musculus with 8 samples.

Results

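The 44 genes described here drive and report cell division: 13 act in DNA replication, 4 control the passage from G1 into S phase, and 27 act in mitosis. They were chosen by name as an established set of cell cycle and DNA replication genes, with earlier results of these data known. Of the 44, 43 were measured among the 19938 genes of the array. Ccnb1, which encodes a cyclin of mitotic entry, is not analysed here, because none of its probe sets carried its symbol alone. Expression was measured in hepatic stellate cells, pericytes of the liver that store vitamin A, from male Balb/c mice.

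The quiescent group (4 arrays) held cells of normal mice. The reverted group (4 arrays) held cells of mice given 4 injections of carbon tetrachloride (CCl4), a liver toxin that causes fibrosis, each of 0.5 µl per g of mouse, 2 a week, and then rested for 45 days. All mice are described as 18 weeks old in one sentence of the labels, while another gives 16 weeks for the CCl4 group. In both groups the cells were enriched by density centrifugation, sorted for retinoid autofluorescence and lysed right after the sort, a sort that selects cells with stored retinoid. The labels do not say whether an array holds 1 mouse or a pool, and the p-values then cover the spread among these arrays alone, part of which may be technical.

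Dividing cells first load the MCM helicase onto replication origins with the help of Cdc6 and Cdt1, and E2F transcription factors switch on these genes and those for DNA precursors. Mitotic genes follow later in the cycle, driven by the MuvB complex together with B-Myb and Foxm1, and many of their promoters carry a cell cycle homology region (CHR) near the start site and boxes for the factor NF-Y. In resting cells the DREAM complex holds many of these genes down. Stellate cells of the healthy liver divide rarely, and division is one of the features of their activation after injury.

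The measured question was whether these genes differed between reverted and quiescent cells, and whether replication and mitosis genes behaved alike on each array. Between the groups 0 of 43 genes were called changed at an adjusted p under 0.05 (limma, Benjamini-Hochberg over all genes), where 0.712% of all genes were called. A single array stood apart. On reverted array 1, all 26 measured mitosis genes had their highest value of the reverted group, 21 of them at least 1.5-fold above the mean of the other 3 reverted arrays, while 0 of the 13 replication genes reached that difference.

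Promoter sequences are shown first, since the sequence features of both classes differ and none of them entered the choice of genes. RefSeq promoter windows (assembly GRCm38.p6, 250 bases before to 50 bases after the start) matched 36 of the 44 genes, with 38 windows. The 140 bases before the start are printed for Mcm6, an MCM helicase subunit with E2F motifs, for Cdk1, the one mitosis gene with both E2F and CHR motifs, and for Cdc20, Ube2c and Kif11, mitosis genes with a CHR close to the start. They run 5′ to 3′ on the strand of the gene, and capitals mark E2F and CHR matches on either strand. The stretches lie at chr1:128359706-128359845 (minus strand, Mcm6), chr10:69352913-69353052 (minus, Cdk1), chr4:118437344-118437483 (minus, Cdc20), chr2:164769789-164769928 (plus, Ube2c) and chr19:37376242-37376381 (plus, Kif11).
Mcm6: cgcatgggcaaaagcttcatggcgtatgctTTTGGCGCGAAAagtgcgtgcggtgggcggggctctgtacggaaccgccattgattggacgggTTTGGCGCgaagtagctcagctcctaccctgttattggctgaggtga
Cdk1: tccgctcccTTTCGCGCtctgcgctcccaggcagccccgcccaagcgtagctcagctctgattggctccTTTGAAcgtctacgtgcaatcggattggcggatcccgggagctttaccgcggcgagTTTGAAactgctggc
Cdc20: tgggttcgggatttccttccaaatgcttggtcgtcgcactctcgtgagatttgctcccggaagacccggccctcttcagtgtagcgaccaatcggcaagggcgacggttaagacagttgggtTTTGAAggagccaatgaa
Ube2c: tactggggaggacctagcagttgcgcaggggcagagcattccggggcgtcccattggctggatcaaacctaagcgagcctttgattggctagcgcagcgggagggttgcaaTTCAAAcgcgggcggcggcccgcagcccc
Kif11: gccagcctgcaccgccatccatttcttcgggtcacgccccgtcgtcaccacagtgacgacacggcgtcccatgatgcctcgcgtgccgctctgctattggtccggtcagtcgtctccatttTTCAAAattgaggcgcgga

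In these stretches the CHR match closest to the start began at base -15 in Cdk1, -18 in Cdc20, -29 in Ube2c and -19 in Kif11, counted from the start site. Mcm6 had E2F matches at -110, -106 and -47, of which the first and second overlap on opposite strands. Over all windows, the E2F motif (TTTCCCGC, TTTGGCGC, TTTCGCGC or TTTGCCGC, both strands) was present in 6 of 8 windows of the licensing and MCM genes (75.0%), in 0 of 5 of the nucleotide supply and clamp genes, and in 1 of 23 of the mitosis genes (4.35%), against 2.26% of 32851 windows of all genes. The CHR motif (TTTGAA, both strands) was present in 17 of 23 mitosis windows (73.9%) and in 1 of 13 replication windows (7.69%, Mcm2), against 17.9% of all windows. The NF-Y box (CCAAT, both strands) was present in 18 of 23 mitosis windows (78.3%) and 9 of 13 replication windows (69.2%), against 37.4% of all. The E2F and CHR matches overlapped in 0 windows. A match describes letters in a window and is not evidence of binding.

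**Figure D1:**
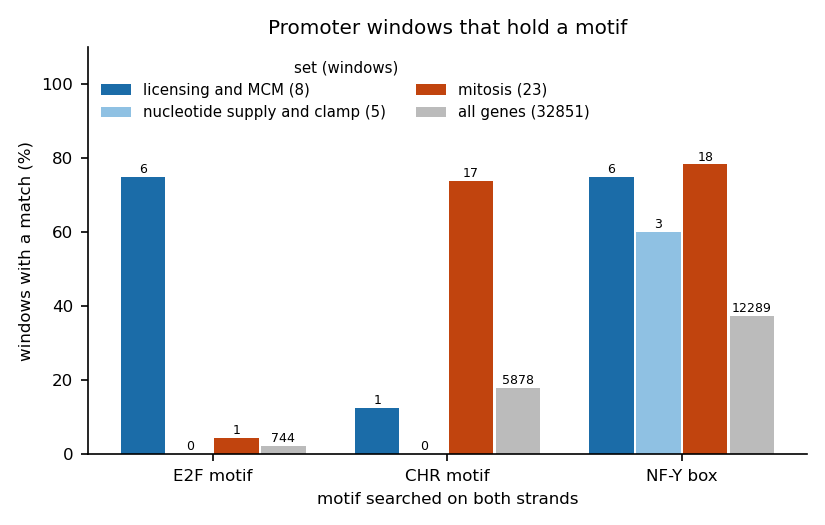
The bars give the percentage of RefSeq promoter windows (250 bases before to 50 after the start) that hold an E2F motif, a CHR motif or an NF-Y box on either strand, for licensing and MCM genes, nucleotide supply and clamp genes, mitosis genes and all genes, with the number of windows that hold it above each bar. E2F matches stood in 6 of 8 licensing and MCM windows and CHR matches in 17 of 23 mitosis windows.

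The arrays carried the labelled cell type: the mean log2 value of 13 stellate markers such as Lrat, Des and Reln lay between 13.11 and 13.16 on the quiescent arrays and between 13.02 and 13.05 on the reverted arrays. The reverted mean was lower for all 13, and 1 of them, Gfap, was called lower (-0.49, adjusted p = 0.0182, limma). Array medians of the deposited values lay between 7.66 and 7.74. RMA usually evens out the arrays, so close medians do not show how bright each array was before processing. All values below are log2 expression values made with RMA, and a change is the reverted mean minus the quiescent mean on the log2 scale. The array means of the 26 mitosis genes were 7.25, 7.14, 7.54 and 7.40 in the quiescent group and 8.40, 7.34, 7.43 and 7.29 in the reverted group. Reverted array 1 lay above all other arrays, and the other 3 reverted arrays lay within the quiescent range.

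The 13 replication genes averaged 8.94, 8.91, 9.09 and 9.07 on the quiescent arrays and 9.16, 8.997, 8.94 and 8.99 on the reverted arrays. Their reverted array 1 was also the highest, but by 0.18 over the mean of the other 3 reverted arrays, against 1.04 for the mitosis genes. That array was the highest reverted array for 9 of the 13, against 35.0% of all genes. It was the highest of all 8 arrays for 6 of the 13, against 2625 of 19938 genes. The mitosis mean minus the replication mean was -0.76 on reverted array 1 and ran from -1.76 to -1.51 on the other 7 arrays. Only the movement of this difference between arrays carries meaning, since levels of different probe sets are not comparable. The 4 G1 and S genes averaged 8.64, 8.58, 8.70 and 8.96 on the quiescent arrays and 8.88, 8.71, 8.77 and 8.77 on the reverted arrays, and the groups overlapped.

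**Figure D2:**
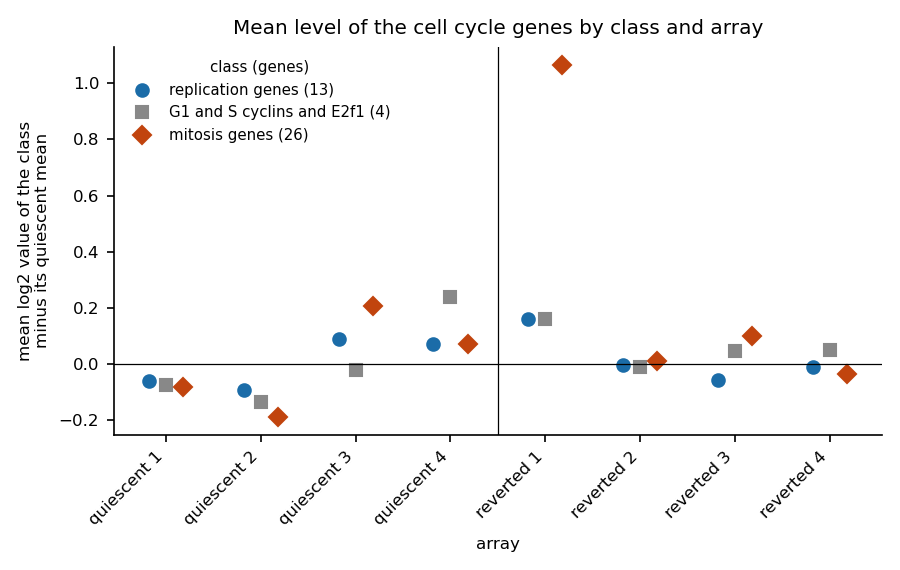
Each point is the mean log2 value of a class of genes on 1 array minus the mean of that class over the 4 quiescent arrays, for 13 replication genes (circles), 4 G1 and S genes (squares) and 26 mitosis genes (diamonds). Reverted array 1 exceeded the mean of the other 3 reverted arrays by 1.04 for the mitosis genes and by 0.18 for the replication genes.

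Licensing and helicase genes were level between the groups. None of the 8 genes (Cdc6, Cdt1 and Mcm2 to Mcm7) was called, the changes ran from -0.10 (Mcm4) to 0.08 (Mcm3), and their median was 0.01, close to the median of all genes (-0.01). Mcm2, the helicase subunit with the CHR match, read 10.25, 10.32, 10.48 and 10.51 on the quiescent arrays and 10.38, 10.38, 10.46 and 10.37 on the reverted arrays. The reverted values lay inside the quiescent range, and the 95% interval of the change ran from -0.14 to 0.14. Mcm4, another helicase subunit, read 10.21, 10.12, 10.18 and 10.26 against 10.01, 10.07, 10.10 and 10.21. Its groups overlapped, and its adjusted p of 0.382 in limma was the lowest of these 8 genes.

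Mcm6 read 6.75, 6.72, 7.11 and 7.05 against 7.10, 6.98, 6.88 and 6.83, with overlapping groups. Cdc6, the loader of the helicase, read 7.11, 6.90, 7.28 and 7.37 on the quiescent arrays and 7.55, 7.07, 6.92 and 7.17 on the reverted arrays. It had the largest difference of the 8 genes on reverted array 1, 0.50 above the mean of the other 3. The changes of the remaining licensing genes were -0.05 for Cdt1, the second loading factor, and -0.03 for Mcm5, 0.04 for Mcm6 and 0.03 for Mcm7, all 3 helicase subunits. Their intervals together with that of Cdc6 stayed between -0.30 and 0.33.

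Genes of nucleotide supply and the replication clamp were not called either, 0 of 5, with a median change of 0.08. Pcna, the sliding clamp of the DNA polymerases, read 12.72, 12.65, 12.44 and 12.78 on the quiescent arrays and 12.46, 12.46, 12.53 and 12.69 on the reverted arrays. Its change was -0.11 ± 0.08 (SE), and its second probe set gave the same change. Rrm1, the large subunit of ribonucleotide reductase, read 9.94, 9.90, 10.17 and 10.22 against 10.36, 10.15, 10.16 and 10.24. Its change of 0.17 had the lowest adjusted p of the 5 genes (0.348, limma), and the groups overlapped.

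Rrm2, the small subunit of ribonucleotide reductase, whose level follows S phase, read 7.12, 6.88, 7.27 and 7.27 against 7.71, 7.31, 7.15 and 7.14. Reverted array 1 was the highest of all 8, 1.42-fold above the mean of the other 3 reverted arrays. Tyms, thymidylate synthase, read 7.80, 7.89, 8.07 and 7.98 against 8.29, 7.96, 7.85 and 7.98. Tk1, thymidine kinase, read 8.44, 8.45, 8.51 and 8.20 against 8.60, 8.27, 8.25 and 8.30, and its reverted array 1 lay 0.33 above the other 3. For these 3 genes reverted array 1 was the highest of the 8 arrays, and less than 1.5-fold above the mean of the other 3 reverted arrays. The direction of Tk1 rests on the probe set: the one used gave -0.04 and the dimmer one 0.11. On reverted array 1 the dimmer one lay 0.50 above the mean of the other 3 reverted arrays, also less than 1.5-fold.

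The G1 and S genes held 0 calls of 4. Ccnd1, cyclin D1, the growth factor responsive cyclin of G1, read 10.82, 10.91, 11.01 and 11.29 on the quiescent arrays and 11.21, 11.01, 11.30 and 11.26 on the reverted arrays. Its change of 0.19 was the largest of the 4, and it stayed at 0.18 without reverted array 1. Ccne1 and Ccne2, the E cyclins of S phase entry, had changes of 0.03 and 0.05, and E2f1, a transcription factor of the S phase programme, of -0.02, with intervals between -0.26 and 0.36 for the 3 genes. None of these 4 genes had its highest value of all 8 on reverted array 1, and that array lay 0.01 (Ccnd1) to 0.32 (Ccne2) above the mean of the other 3.

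The mitosis genes held 0 calls of 26, and 1 of them (Cdk1) had an unadjusted p under 0.05 in limma, a threshold that 16.0% of all genes met. Welch's test per gene called 0 of the 43, but it called 0 of all 19938 genes and so says nothing particular about these. Their median change was 0.27, and the mean was higher in the reverted group for 25 of the 26. Over all 43 genes the reverted mean was higher for 36, against 46.4% of all genes. Without reverted array 1 it was higher for 20 of 43, against 45.1% of all genes. The groups did not overlap for 0 of the 43 genes, against 8.73% of all genes.

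Reverted array 1 was the highest reverted array for 37 of the 43 genes, against 35.0% of all genes. It was the highest of all 8 arrays for 31, against 2625 of 19938 genes. In Dixon's outlier test at 95%, reverted array 1 stood above its group for 17 genes (16 mitosis genes and Tk1), against 1.57% of all genes. It was at least 1.5-fold above the mean of the other 3 for 21 genes, all of them mitosis genes, against 0.461% of all genes (92 of 19938). For 13 of the 21 the difference was at least 2-fold. For genes that were dim on the other arrays these folds rest on a baseline near background: Cenpf and Kif2c do not reach 1.5-fold, nor Bub1 2-fold, when set against a dim level described with the genes. These are descriptions of 1 array, and the fit has no second array like it in the reverted group. The array was picked by the values of these same genes, so the shares of all genes are no independent test.

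**Figure D3:**
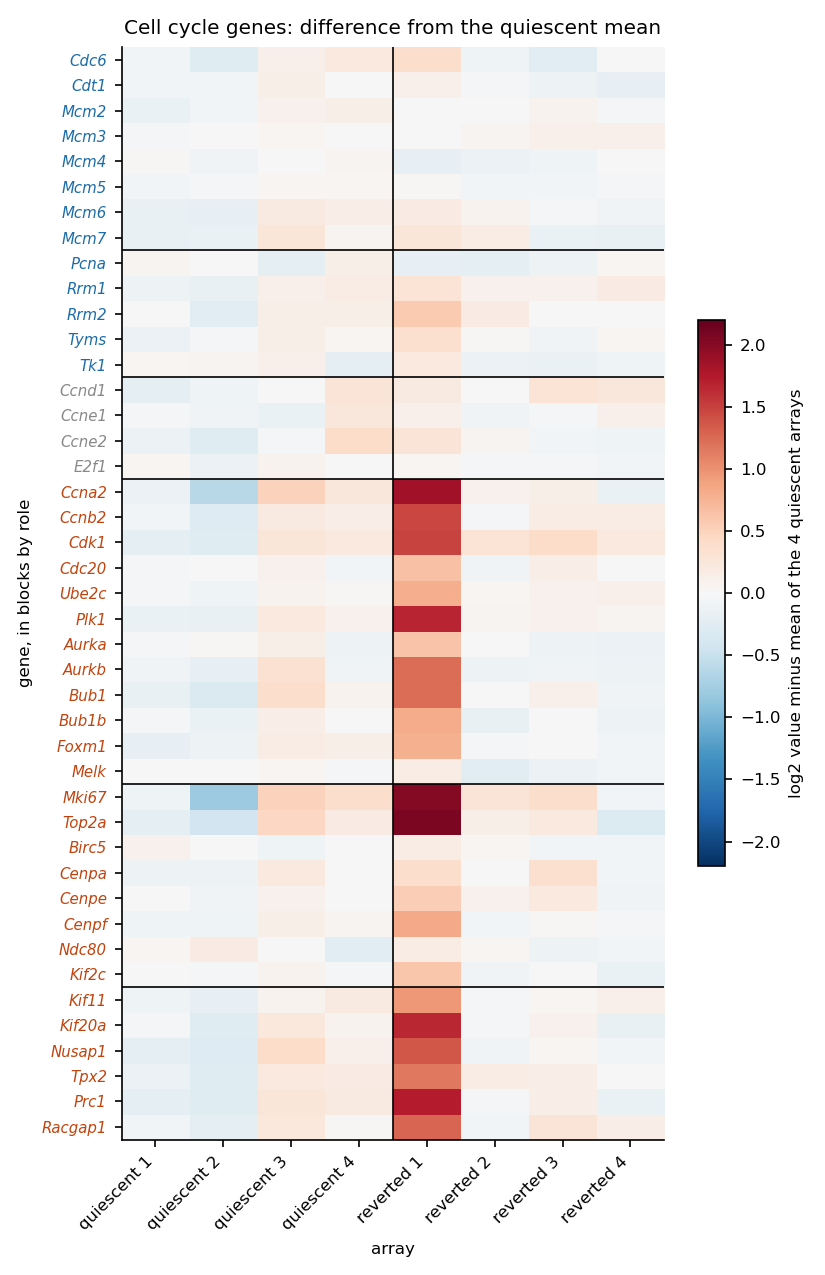
The colours give the log2 value of each gene on each array minus its mean over the 4 quiescent arrays, for 43 genes in blocks by role (replication in blue lettering, G1 and S in grey, mitosis in orange). Reverted array 1 is the highest reverted array for all 26 mitosis genes, while 0 of the 13 replication genes reach 1.5-fold there.

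Among cyclins, kinases and their regulators, reverted array 1 was the highest of all 8 arrays for all 12 measured genes, and at least 1.5-fold above the other 3 reverted arrays for 11. Ccna2, cyclin A2, which acts in S phase and at mitotic entry, read 7.80, 7.33, 8.44 and 8.19 on the quiescent arrays and 9.79, 8.04, 8.08 and 7.79 on the reverted arrays. Cdk1, the kinase that drives entry into mitosis, read 8.26, 8.19, 8.71 and 8.66 against 9.94, 8.75, 8.87 and 8.67. For Ccna2 the other 3 reverted arrays lay inside the quiescent range, while for Cdk1 reverted arrays 2 and 3 were above all quiescent arrays. Cdk1 had the lowest adjusted p of the 43 genes (0.310 in limma, change 0.60, 95% interval 0.004 to 1.20), and its change was 0.31 without reverted array 1.

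Plk1, a kinase of centrosome maturation and mitotic progression, read 7.54, 7.53, 7.91 and 7.79 against 9.37, 7.75, 7.79 and 7.76. Ccnb2, a cyclin partner of Cdk1, read 8.33, 8.10, 8.58 and 8.53 against 9.86, 8.36, 8.55 and 8.55. Aurkb, the kinase of the chromosomal passenger complex, read 8.12, 8.02, 8.53 and 8.11 against 9.43, 8.09, 8.11 and 8.09. In each of these 3 genes the reverted group held 3 arrays within the quiescent range and 1 far above it, 3.04-fold for Plk1, 2.59-fold for Ccnb2 and 2.52-fold for Aurkb. Their changes over all arrays were 0.47, 0.45 and 0.23, with standard errors of 0.33, 0.29 and 0.29.

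The spindle checkpoint kinases Bub1 and Bub1b, dim on the other arrays, were at least 1.89-fold and 1.56-fold higher on reverted array 1, set against a level of 6.95, under which 95% of olfactory receptor genes lie. Foxm1, the transcription factor of the mitotic programme, was 1.75-fold higher there, with 8.87 against 8.06, 8.08 and 8.03. Aurka, the spindle pole kinase, was 1.64-fold higher. Ube2c and Cdc20, the ubiquitin-conjugating enzyme and an activator of the anaphase promoting complex, were 1.64-fold and 1.54-fold higher. Melk, a kinase of the same expression programme, was dim (6.96 on reverted array 1), the one gene of the 12 below 1.5-fold, and the one mitosis gene with a lower reverted mean (-0.06). The differences of the 12 genes thus spanned 0.31 (Melk) to 1.82 (Ccna2) on the log2 scale.

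The chromosome and kinetochore genes were split. Mki67, which encodes the proliferation marker Ki-67, read 7.88, 7.18, 8.47 and 8.35 on the quiescent arrays and 9.99, 8.25, 8.36 and 7.91 on the reverted arrays. Top2a, the topoisomerase that untangles chromosomes, read 6.67, 6.46, 7.33 and 7.06 against 8.95, 7.0, 7.10 and 6.58. For both, reverted arrays 2 to 4 lay inside the quiescent range. Mki67 was 3.53-fold higher on reverted array 1 than on the other 3. Top2a was dim on the other 7 arrays (mean 6.89), and against the level of 6.95 it was at least 3.998-fold higher.

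Over all arrays the change of Mki67 was 0.66 (95% interval -0.34 to 1.65) and that of Top2a 0.53 (-0.49 to 1.55). A second, dimmer probe set of Top2a read between 5.03 and 5.27 on all arrays and showed no such difference (-0.01). Cenpf, a dim kinetochore gene, was at least 1.37-fold higher on reverted array 1, and Kif2c, a microtubule depolymerase of the centromere, stayed below the level of 6.95 there, at 6.89. The centromeric histone Cenpa was 1.22-fold higher. The motor Cenpe, the kinetochore subunit Ndc80 and Birc5 (survivin) read 6.39, 6.69 and 6.92 there, below the dim level on every array. Ndc80 was the one mitosis gene whose highest value of all 8 lay elsewhere, at 6.70 on quiescent array 2 against 6.69 on reverted array 1.

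All 6 spindle and cytokinesis genes were at least 1.5-fold higher on reverted array 1, and 5 of them at least 2-fold. Prc1, which bundles the microtubules of the central spindle, read 6.78, 6.70, 7.23 and 7.17 on the quiescent arrays and 8.70, 6.95, 7.12 and 6.83 on the reverted arrays. Kif20a, a kinesin of cytokinesis, read 7.02, 6.79, 7.29 and 7.13 against 8.71, 7.02, 7.15 and 6.89. For both the remaining reverted arrays lay inside the quiescent range. The spindle protein Nusap1 was 2.64-fold higher, Tpx2, dim on the other 7 arrays, at least 2.00-fold, Racgap1, a regulator of the cleavage furrow, 2.23-fold, and Kif11, the kinesin that separates the spindle poles, 1.87-fold.

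**Figure D4:**
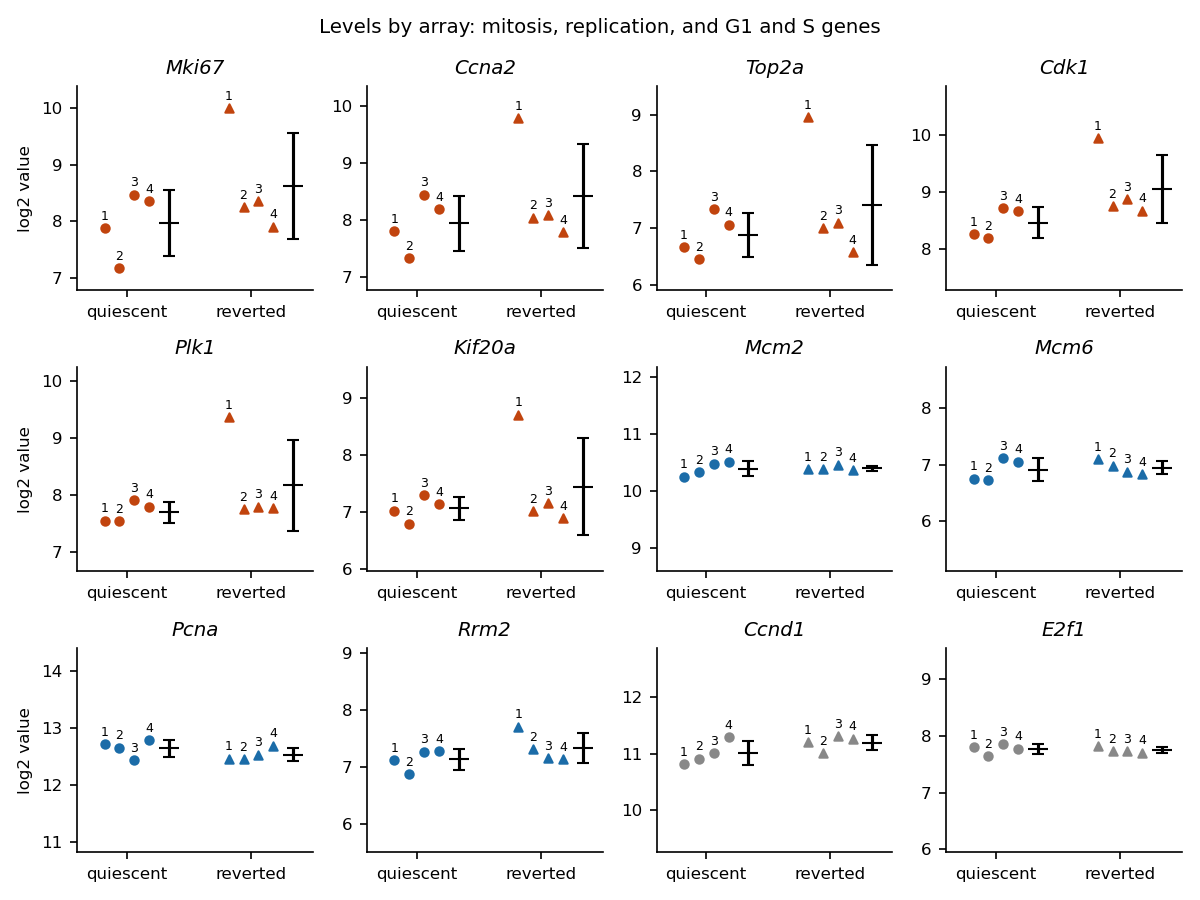
Points are log2 values of 12 genes on the 4 quiescent (circles) and 4 reverted (triangles) arrays, labelled by replicate number, with the mean and SD of each group beside them, and all panels span the same number of log2 units. Reverted array 1 stands alone for Mki67, Ccna2, Top2a, Cdk1, Plk1 and Kif20a (orange), and lies among the others for Mcm2, Mcm6, Pcna, Ccnd1 and E2f1.

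The mitosis genes also varied together within the quiescent group, on a smaller scale. Quiescent array 3 was the highest quiescent array for 23 of the 26 mitosis genes and 31 of the 43 genes, against 26.3% of all genes. Quiescent array 2 was the lowest for 18 of the 26 and 26 of the 43, against 23.9% of all genes. Both arrays were picked by the values of these same genes, so the counts are a description and not a test. The mitosis mean differed by 0.40 between these arrays, and the replication mean by 0.18. On quiescent array 3, 3 genes (Mki67, Ccna2 and Top2a) were at least 1.5-fold above the other 3 quiescent arrays, and on the remaining arrays apart from reverted array 1 none of the 43 was.

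Leaving out reverted array 1 lowered the median change of the mitosis genes from 0.27 to 0.01 and that of the replication genes from 0.02 to -0.04. The sign turned for 16 of the 43 genes. Mki67 then had a change of 0.20, Top2a of 0.01, Ccna2 of 0.03 and Plk1 of 0.07. Still 0 of 43 genes were called, against 127 of 19938 genes in the same fit, with a lowest adjusted p of 0.228 (limma). In that fit 2 of the 43 genes had an unadjusted p under 0.05, Mcm3 with a change of 0.10 and Melk with -0.14. Over all arrays 16.0% of all genes met that threshold in limma, and the share without reverted array 1 was not counted. Mcm3 and Melk are therefore not shown to stand out from other genes.

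**Figure D5:**
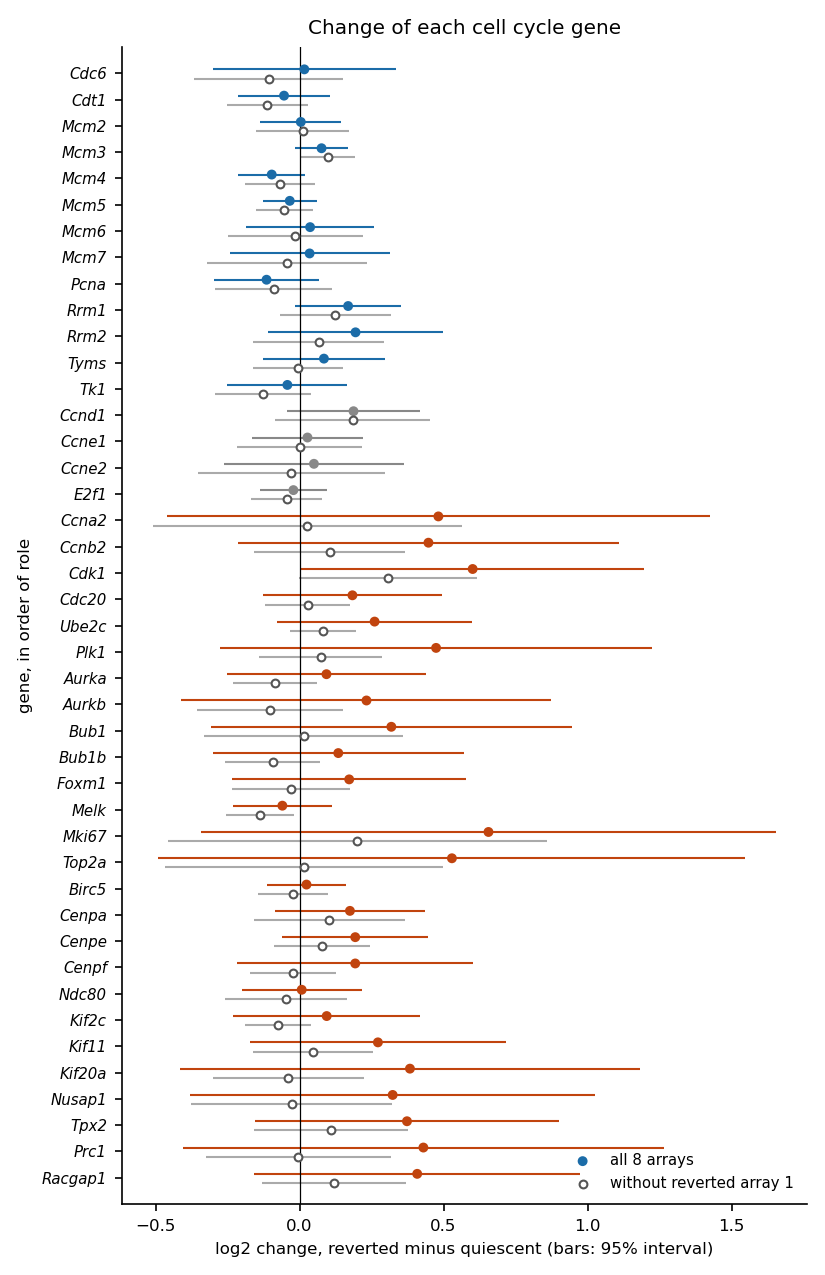
Points are log2 changes (reverted minus quiescent) of 43 genes with 95% intervals from limma, over all 8 arrays (filled, blue for replication, grey for G1 and S, orange for mitosis) and without reverted array 1 (open). The intervals of many mitosis genes are wide over all 8 arrays. The median change of the mitosis genes is 0.27 over all 8 arrays and 0.01 without reverted array 1. Melk and Ndc80 lie farther from 0 without that array, at -0.14 and -0.05.

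Other genes of cell division, 170 measured of 176 entries in 9 lists, held 1 call (0.588%, against 0.712% of all genes) and 30 genes with an unadjusted p under 0.05 in limma (17.6%, against 16.0%). Both shares were near those of all genes. Smc4, a condensin subunit that compacts chromosomes, rose by 0.33 (adjusted p = 0.0284, limma), from 9.64, 9.57, 9.73 and 9.64 on the quiescent arrays to 10.03, 10.04, 9.97 and 9.86 on the reverted arrays. The groups did not overlap, and reverted array 1 was not set apart (0.07 above the other 3). The call was lost in 5 of the 8 fits that left out 1 array (quiescent 1 or 2; reverted 1, 2 or 3), with an adjusted p of 0.0632 in limma without reverted array 1. It was also lost with quantile normalization, with Welch's test and with the replicate number as a block. Ncapd3, the condensin gene with the next smallest p, was 0.17 higher and not called.

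The growth regulator Myc read 11.61, 11.35, 11.30 and 12.08 on the quiescent arrays and 12.25, 12.21, 12.27 and 12.38 on the reverted arrays. Its groups did not overlap, and its change of 0.70 had an adjusted p of 0.0820 in limma, above the threshold. Chek1, the checkpoint kinase of stalled replication, read 7.96, 7.60, 7.99 and 8.19 against 8.31, 8.55, 8.22 and 8.59 (change 0.49, adjusted p = 0.134, limma). For these genes, unlike the mitosis genes above, all 4 reverted arrays lay above the quiescent arrays, narrowly so for quiescent array 4. Reverted array 1 lay 0.04 and 0.14 below the mean of the other 3. Myc and Chek1 were named for the smallest p of their lists, a choice that favours such a separation. Over the other lists the groups did not overlap for 18 of 170 genes, against 8.73% of all genes. Among the CDK inhibitors, 0 of 6 were called, with Cdkn2d (p19Ink4d) 0.20 lower (adjusted p = 0.0987, limma) and Cdkn2c (p18Ink4c) 0.41 higher (0.251).

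No gene of the remaining lists was called. In origin recognition and firing (18 genes), Mcmbp, which binds MCM subunits, was 0.14 lower and Gins4, a subunit of the active helicase, 0.17 higher. Among polymerases and fork factors (25 genes), the primase partner Pola2 was 0.14 lower and the clamp loader subunit Rfc4 0.23 higher. In the RB, E2F and DREAM list (19 genes), the repressor E2f7 was 0.35 and E2f5 0.23 higher. Cdk7, the CDK-activating kinase, was 0.19 higher and the damage kinase Atm 0.18 higher, while the anaphase promoting complex subunits Anapc5 and Anapc2 were 0.12 lower and 0.13 higher. The adjusted p of these genes lay between 0.139 and 0.254 (limma).

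The list of 42 further kinetochore, spindle and cytokinesis genes had a like pattern on the same array, which is no independent sample. Reverted array 1 was the highest reverted array for 39 of the 42, against 35.0% of all genes. It was at least 1.5-fold above the other 3 for 17, against 0.461% of all genes, with a median difference of 0.50. Of the 42, 26 had a mean over all arrays below the dim level of 6.95, and the folds of such genes rest on a baseline near background. Ect2, which activates the cleavage furrow, read 7.29, 6.91, 7.59 and 7.51 on the quiescent arrays and 8.53, 7.37, 7.62 and 7.42 on the reverted arrays. Cdca7, a Myc-responsive gene in the same list, did not follow: reverted array 1 lay 0.22 below the other 3, and its change was 0.28 (adjusted p = 0.239, limma). In the other lists the median difference on reverted array 1 was -0.01 for polymerases and fork factors, 0.01 for origin recognition and firing, -0.02 for G1 cyclins and CDKs, 0.05 for the RB, E2F and DREAM list, 0.04 for the anaphase promoting complex, 0.07 for condensin and cohesin, 0.11 for CDK inhibitors and 0.16 for checkpoint and mitotic entry. It was 0.14 for the licensing members, 0.33 for the nucleotide supply and clamp members and 0.98 for the mitosis members.

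Of the 92 genes at least 1.5-fold higher on reverted array 1, 21 were members of the set and 22 were in the other cell cycle lists, together 46.7%. The same count for each remaining array ran from 7 to 78 genes, of which cell cycle genes made up 0 to 7.32%. In these bulk samples a larger share of dividing cells and more mitotic RNA per dividing cell cannot be told apart.

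Markers of other liver cells were read on the same arrays. The mean of 15 hepatocyte markers was 9.21 on reverted array 1, the highest of all 8. It was 8.72 to 9.02 on the other reverted arrays and 8.06 to 8.95 on the quiescent arrays. For 10 of the 15 the highest reverted value lay on reverted array 1, against 35.0% of all genes. The rise was not limited to that array. The reverted mean was higher for all 15, with a median change of 0.50, and of 0.40 without reverted array 1. Hp was called higher (0.80, adjusted p = 0.0373, limma). The mean of 12 mesothelium and portal fibroblast markers was 8.20 on reverted array 1. It was 7.95 to 8.06 on the other reverted arrays and 7.78 to 7.88 on the quiescent arrays. For 8 of the 12 the highest reverted value lay on reverted array 1, against the same 35.0%. This list did not move as a whole, since the reverted mean was lower than the quiescent mean for 8 of the 12. Dpt and Wt1 had its largest changes (1.69 and 1.39), and both were called higher (adjusted p = 0.0174 and 0.00801, limma). Wt1, one of these markers, read 10.07 on reverted array 1, 9.36 to 9.46 on the other reverted arrays and 7.95 to 8.37 on the quiescent arrays. Their part in the result on reverted array 1 was not tested.

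Lymphocyte markers (13 genes) averaged 6.56 on reverted array 1 and 6.51 to 6.66 on the others. Kupffer cell and macrophage markers (11 genes) averaged 7.02 against 6.85 to 7.02, and neutrophil markers (8 genes) 6.57 against 6.50 to 6.66. The endothelial mean (11 genes) was 8.30 against 8.16 to 8.67 on the others. These lists placed reverted array 1 inside the range of the remaining arrays, and its stellate mean was 13.03.

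At the dim end, 9 of the 43 genes (Mcm6, Bub1, Bub1b, Melk, Birc5, Cenpe, Cenpf, Ndc80 and Kif2c) had a mean below 6.95, the level that 95% of 1027 olfactory receptor genes, which are not expected in liver, stay under. Without reverted array 1 the mean lay below this level for 12 genes, the 9 above and Ccne2, Top2a and Tpx2, which pass it only through that array. Of the 21 genes counted at 1.5-fold on reverted array 1, Bub1, Bub1b, Top2a and Tpx2 reach 1.5-fold also against this level, while Cenpf and Kif2c do not. Among the 21 measured mitosis genes with a promoter window, the 16 with a CHR match had a median difference of 0.91 on reverted array 1 (0.22 to 2.06), and the 5 without one 0.46 (0.19 to 1.40), ranges that overlap. The 5 are Birc5, Bub1, Cenpe, Melk and Nusap1, all but Nusap1 dim. Of the 16, Bub1b, Cenpf, Kif2c and Ndc80 are dim, and Top2a is without reverted array 1. The part of the low level in this difference was not tested.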

How the data were processed

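Expression was measured on 8 arrays (4 quiescent, 4 reverted; 150 ng RNA each). The deposited log2 values were made by the authors with RMA, per the submitters' processing notes. Its version and settings and a genome build were not named in the sources used here. Of 35556 probe sets, 23410 are listed in the platform annotation, 21789 with 1 gene symbol and 1621 with several, and 12146 are unnamed here. Per gene, the probe set with 1 symbol and the highest mean over all arrays was used (999 genes had several), which left 19938 genes. No dim genes were left out, and 0 columns were without a sample.

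Groups were compared with limma 3.58.1 in R 4.3.3, 2-sided, with Benjamini-Hochberg adjustment over 19938 genes and a threshold of 0.05. Errors are SE of the fit. The fit was tested on simulated data. Tables and plots used Python 3.11.15, pandas 2.3.3 and matplotlib 3.10.9. The genes and lists were chosen with earlier results of these data known. All members are named, and of each other list the called genes and the 2 with the smallest p. Alternatives were quantile normalization, centring on array medians, Welch's test, array weights, a robust fit with an intensity trend, a replicate block, filters that drop the dimmest 25% or 50% of genes, the mean or the lowest probe set of a gene, and leaving out each array. The number of arrays limits the precision.

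Promoter windows and coordinates are those of RefSeq for GRCm38.p6, matched by symbol. The sources used here name no batch. Replicate numbers are shared by the groups, but nothing says that they pair samples.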

Additional observations from a re-analysis of the deposited data

Results flagged for a closer look

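Within the groups of 4, 128 sets of values were checked with Dixon's test at 95%, which chance would pass in about 1 of 20, and 19 passed. All but 1 of the 19 had reverted array 1 as the high value. Their log2 values on reverted array 1 were 8.60 for Tk1, 9.79 for Ccna2, 9.86 for Ccnb2, 9.94 for Cdk1, 9.16 for Ube2c, 9.37 for Plk1, 8.10 for Aurka, 9.43 for Aurkb, 7.87 for Bub1, 7.59 for Bub1b, 8.87 for Foxm1 and 7.41 for Cenpf. The spindle genes read 8.21 for Kif11, 8.71 for Kif20a, 8.45 for Nusap1, 7.95 for Tpx2 and 8.70 for Prc1, and the mean of the mitosis genes was 8.40. The exception was Mcm2, with 10.46 on reverted array 3 against 10.37 to 10.38 on the other reverted arrays. These genes share 1 array and are not independent of each other.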

How the results depend on the processing

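In the fit reported and in all 18 other settings, 0 of the 43 genes were called (filters on dim genes left 40 and 19 of them to test), and 23 kept their sign wherever tested. Signs that turned with quantile normalization were those of Mcm2 (-0.053), Mcm7 (-0.028), Ccne1 (-0.032) and E2f1 (0.0065), with median centring that of Mcm2 (-0.0008), and with array weights those of Cdc6 (-0.022), Mcm7 (-0.0028), Birc5 (-0.0092) and Ndc80 (-0.056). Tk1 turned with the mean of its probe sets (0.033) and with the dimmer one (0.11). Leaving out each array in turn gave the ranges -0.085 to 0.17 for Aurka, -0.10 to 0.35 for Aurkb, -0.024 to 0.055 for Birc5, -0.093 to 0.23 for Bub1b, -0.022 to 0.11 for Ccne1, -0.038 to 0.19 for Ccne2, -0.11 to 0.10 for Cdc6, -0.022 to 0.28 for Cenpf, -0.062 to 0.0054 for E2f1, -0.031 to 0.25 for Foxm1, -0.040 to 0.57 for Kif20a, -0.076 to 0.17 for Kif2c, -0.043 to 0.045 for Mcm2, -0.025 to 0.10 for Mcm6, -0.044 to 0.12 for Mcm7, -0.070 to 0.07 for Ndc80, -0.028 to 0.46 for Nusap1, -0.0053 to 0.62 for Prc1 and -0.0051 to 0.14 for Tyms.

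Of the 170 other cell cycle genes, 2 were called with quantile normalization (Pola2 and Cdkn2d), 2 with array weights (Myc and Smc4), 0 with Welch's test, 0 with the replicate block and 0 to 2 without 1 array; the cause was not tested. Over all genes the count of calls was 142, and 219 with quantile normalization, 306 with array weights, 63 with the replicate block, 0 with Welch's test and 54 to 247 without 1 array. The values showed no pairing by replicate number, though they cannot exclude one. Correlations of deviations from the group means ran from -0.15 to 0.08 for same-numbered arrays, and 0 of 4 correlated best with their own number. The highest correlation of any quiescent with any reverted array was 0.33, between quiescent array 3 and reverted array 1. With 4 arrays a group and 1 of them apart, the 95% intervals of 9 of the 26 mitosis genes reach above 1 log2 unit.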

Other observations

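Ranking all 19938 genes by their difference between reverted array 1 and the mean of the other 3 reverted arrays placed 17 mitosis genes and 0 replication genes of the set among the first 50, with 15 from the other lists and 18 from no list. The following genes were chosen after their values were seen. Ckap2, a spindle protein, read 8.71 on reverted array 1 and 6.94 to 7.08 on the other 3, and Knl1, a kinetochore scaffold, 8.02 against 6.60 to 6.86. Of the genes in no list, Stmn1, a regulator of microtubules, read 9.87 there against 8.48 to 8.83, and Prr11 9.01 against 7.63 to 7.92. Hepatocyte genes were also present, such as Cyp3a25 with 8.91 against 7.99 to 8.13.

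Histone genes of the H1f, H2ac, H2bc, H3c and H4c symbol series were read as a further set of 30 genes chosen after the values were seen. Many histone genes make their RNA in S phase, but the set was picked by symbol and not limited to these. Reverted array 1 was the highest reverted array for 22 of the 30 (73.3%, against 35.0% of all genes) and at least 1.5-fold above the other 3 for 4, with a median difference of 0.18. H2bc3 had the largest, with 9.48 on reverted array 1 against 7.75, 7.90 and 7.95. In limma 0 of the 30 were called and 4 had an unadjusted p under 0.05 (13.3%, against 16.0% of all genes).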
